A study of Mus musculus with 6 samples.

Results

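The S100 proteins, the annexins and the galectins are 3 families of small proteins that bind calcium, membrane lipids or cell-surface sugars, and their transcripts were examined in mouse biliary epithelial cells with and without a conditional deletion of Sox9. The genes were taken by symbol: S100a followed by a number, S100b, S100g, S100z and S100pbp, and every annexin (Anxa) and galectin (Lgals) symbol that ends in a number. This gave 33 of the 25302 rows of the deposited table, made up of 12 S100 genes, the S100-binding protein gene S100pbp, 12 annexins and 8 galectins. Of these, 29 had a mean of at least 10 normalized counts over the 6 samples and were tested. S100a4, S100a5, S100a7l2, S100a8, S100a9 and S100z were not analysed here.

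RNA was sequenced from biliary epithelial cells of mouse liver, which form the wall of the bile ducts. The Control group (3 samples) had the genotype Sox9fl/fl, and the Sox9cKO group (3 samples) had the genotype Sox9fl/fl:AlbCre+/-, so that both groups carried floxed Sox9 alleles and only the Sox9cKO samples carried Cre recombinase under the albumin promoter. That promoter is active in hepatocytes and in the fetal progenitors of hepatocytes and bile duct cells, so the deletion is not specific to the biliary lineage, and samples with Cre alone were not analysed here. Age and sex are not given in the labels, nor whether each sample came from its own animal, so p-values measure the spread between these samples.

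S100 proteins are small EF-hand calcium sensors that change shape when calcium rises and then bind target proteins, among them annexins. Annexins bind acidic phospholipids of membranes in a calcium-dependent way and act in membrane repair, vesicle traffic and cell-surface proteolysis. Galectins bind beta-galactoside sugars on glycoproteins, both outside the cell and on damaged vesicles inside it. Annexin A2 with its partner S100a10 gathers plasminogen and its activator on the cell surface, and galectin-3 is known from bile duct epithelium and from macrophages.

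Between 11883496 and 16191990 reads were assigned to genes in each sample, and 23743 to 25084 genes had at least 1 read. All levels below are normalized counts, in which the authors' size factor for each library (0.868 to 1.19) has been divided out of the reads. Sox9 had 6211, 6043 and 6293 normalized counts in the Control samples, given here and below in the order of replicates 1 to 3, and 3363, 3165 and 3340 in Sox9cKO, so every library followed its label and 53.2% of the Control mean remained in Sox9cKO (log2 fold change -0.91 ± 0.095 SE, adjusted p 0.00501 from limma). Values per gene do not show which exons the reads came from. Of the 12 biliary marker genes all were measured, and their summed level was 89149 to 128664 in Control and 76073 to 102789 in Sox9cKO. Markers of other cell types were present too. The 8 hepatocyte markers summed to 18972 to 30273 in Control and 24697 to 38603 in Sox9cKO, most of it albumin transcript, and the 8 endothelial markers to 1426 to 31024 and 5027 to 31564. In bulk samples, fewer cells of a type and less RNA per cell cannot be told apart.

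The 5 genes that changed were S100a11, Anxa8, Anxa11 and Lgals3, which were higher in Sox9cKO, and Anxa9, which was lower. To place them, the 250 bases before a RefSeq transcription start (GRCm38.p6) are printed 5′ to 3′ on the strand of the gene. S100a11 lies at chr3:93520246-93520495 on the plus strand, Anxa8 at chr14:34085729-34085978 on the plus strand, Anxa11 at chr14:25841905-25842154 on the plus strand, Lgals3 at chr14:47373610-47373859 on the plus strand, and the outermost of the Anxa9 starts at chr3:95315181-95315430 on the minus strand. Capitals mark the AP-1 motif TGANTCA and the Sox motifs ACAATG and ACAAAG, each searched on both strands.
S100a11: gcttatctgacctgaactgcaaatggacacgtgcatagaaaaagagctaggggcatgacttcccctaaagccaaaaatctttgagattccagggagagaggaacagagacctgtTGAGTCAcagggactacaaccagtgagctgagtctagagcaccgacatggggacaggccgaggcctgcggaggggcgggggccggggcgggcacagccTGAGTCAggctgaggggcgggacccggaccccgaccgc
Anxa8: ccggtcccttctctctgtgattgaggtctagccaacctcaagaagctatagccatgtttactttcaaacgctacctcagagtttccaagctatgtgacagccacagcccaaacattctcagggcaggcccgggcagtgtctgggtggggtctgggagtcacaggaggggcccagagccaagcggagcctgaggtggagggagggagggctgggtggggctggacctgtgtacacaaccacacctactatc
Anxa11: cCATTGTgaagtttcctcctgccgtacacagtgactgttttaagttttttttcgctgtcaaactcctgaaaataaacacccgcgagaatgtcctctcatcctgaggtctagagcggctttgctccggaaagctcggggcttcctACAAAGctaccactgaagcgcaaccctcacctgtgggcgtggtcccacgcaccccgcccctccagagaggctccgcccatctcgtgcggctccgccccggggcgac
Lgals3: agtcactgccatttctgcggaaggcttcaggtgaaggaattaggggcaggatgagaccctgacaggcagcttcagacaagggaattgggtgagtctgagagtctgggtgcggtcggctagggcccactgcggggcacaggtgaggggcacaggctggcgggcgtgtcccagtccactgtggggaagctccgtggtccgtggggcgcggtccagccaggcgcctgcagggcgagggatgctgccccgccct
Anxa9: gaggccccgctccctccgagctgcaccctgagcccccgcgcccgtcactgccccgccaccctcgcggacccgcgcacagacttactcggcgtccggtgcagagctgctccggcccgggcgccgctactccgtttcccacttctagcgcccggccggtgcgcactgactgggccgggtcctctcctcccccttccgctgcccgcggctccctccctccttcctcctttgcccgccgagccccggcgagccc

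The S100a11 window held the AP-1 letters at 136 and 38 bases before the start, and the Anxa11 window held Sox letters at 249 and 106 bases before it. The Anxa8, Lgals3 and printed Anxa9 windows held neither, while the window of the other Anxa9 start held ACAAAG at 199 bases before it. Over the 3 families, 25 of the 33 genes matched a RefSeq entry, giving 33 windows, of which 4 held the AP-1 letters and 7 the Sox letters. Among all 32851 windows of that length the shares were 6.75% and 25.2%. A match describes the letters only.

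Of the 29 genes tested, 5 passed an adjusted p of 0.05 (limma, Benjamini-Hochberg over all 17153 genes tested), 4 of them higher and 1 lower in Sox9cKO. Over all genes tested, 2.97% passed, 2.03% as higher and 0.939% as lower. The log2 fold change was positive for 22 of the 29 genes and negative for 7, and its median was 0.57, against 0.036 and 54.2% positive over all genes tested. The medians were 1.005 for the 6 tested galectins, all of them positive, 0.37 for the 10 tested S100 genes and 0.18 for the 12 annexins. These medians depend on a few genes. Over the 27 genes with a mean of at least 10 in both groups, which leaves out S100g and S100a7a, the median was 0.27, and over the 8 such S100 genes it was 0.074. With no filter it was 0.18 over the 33 genes, and with the endothelial marker level as a covariate 0.35 over the 29. An unadjusted p under 0.05 was found for 13 of the 29 (44.8%), against 17.8% of all genes tested.

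Same-numbered samples deviated together from their group means, and limma with the replicate block called 9 of the 29 genes, 8 higher and 1 lower, where 8.05% of all genes tested were called, 5.06% as higher and 2.99% as lower. The 4 genes added were S100a6, Anxa3, Lgals1 and Lgals9. In 12 of the 29 genes the 3 Control and the 3 Sox9cKO values did not overlap, 11 with Sox9cKO higher, against 24.2% and 13.4% of all genes tested. Apart from Anxa9, these calls were sensitive to single libraries: without any one of the Control samples, or without Sox9cKO replicate 3, only Anxa9 passed, without Sox9cKO replicate 1 Anxa9 and Lgals3 passed, and without Sox9cKO replicate 2 the number was 6. Without the intensity trend in limma only Anxa9 passed, and quantile normalization lost S100a11 and Anxa11.

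**Figure D1:**
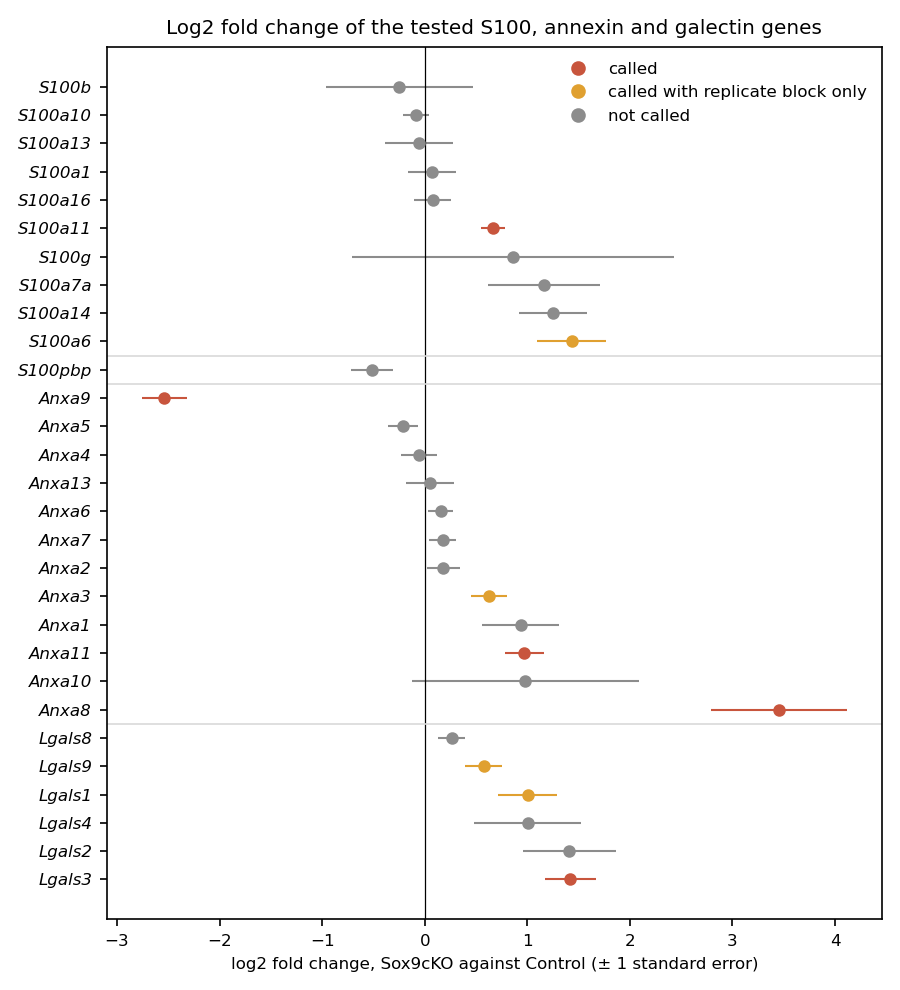
Log2 fold change in Sox9cKO against Control of the 29 tested genes (x axis, log2 scale, bars ± 1 standard error), with S100 genes at the top, then S100pbp, annexins and galectins. Red points passed an adjusted p of 0.05 in limma, yellow points passed only with the replicate number as a block, and grey points passed in neither, and the 6 galectins all lie right of 0.

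Among the S100 genes, S100a11 was the only one called by limma without the replicate block, and it was higher in Sox9cKO. S100a11, which binds annexin A1 and is abundant in epithelia, had 1040, 1192 and 1280 normalized counts in Control and 1872, 1871 and 1813 in Sox9cKO. The groups did not overlap, and the Sox9cKO samples lay closer together (1852 ± 34.3, SD, n = 3) than the Control samples (1170.5 ± 121.5, SD, n = 3). Its log2 fold change was 0.67 ± 0.116 SE (adjusted p 0.0300 from limma), and the call was lost in each of the 6 fits without 1 sample, where the adjusted p from limma reached 0.125. An S100a11 pseudogene is listed by RefSeq, and how reads shared with it were assigned is not given in the sources used here.

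S100a6, or calcyclin, a partner of annexin A11 found in many proliferating epithelia, had 314, 384 and 437 normalized counts in Control and 1690.3, 639.8 and 964.5 in Sox9cKO. Every Sox9cKO sample lay above every Control sample, with Sox9cKO replicate 1 far above the other two. On the log2 scale the fold change was 1.43 ± 0.34 SE, with an adjusted p from limma of 0.0773, and of 0.036 with the replicate block. S100a14, an S100 protein of epithelial cells, had 50.4, 74.3 and 74.9 normalized counts in Control and 242, 106 and 153 in Sox9cKO. Its groups did not overlap either, again with replicate 1 highest, but the adjusted p from limma was 0.107 without and 0.0679 with the block (log2 fold change 1.26 ± 0.33 SE). DESeq2, which made more false calls than limma on simulated data, called both genes, with an adjusted p of 0.000338 for S100a6 and 0.0110 for S100a14.

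S100a10, the annexin A2 partner, was the most abundant S100 transcript. It had 4273, 4242 and 4467 normalized counts in Control and 4697, 3556 and 4031 in Sox9cKO, so the groups overlapped (log2 fold change -0.089 ± 0.13 SE, adjusted p 0.773 from limma). S100a16 (419 to 451 normalized counts in Control and 376 to 578 in Sox9cKO), S100a1 (228 to 254 and 206 to 370) and S100a13 (181 to 221 and 114 to 292) had log2 fold changes of 0.077, 0.072 and -0.057, and none passed. In each of these 3 genes Sox9cKO replicate 1 held the highest value of the 6 samples. The groups also overlapped for S100b, a protein of glia, at 22.3 to 26.5 in Control and 6.62 to 63.7 in Sox9cKO.

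A pair of S100 genes passed the filter only through Sox9cKO. S100g, or calbindin-D9k, a calcium carrier of intestine, had 1.68, 11.1 and 3.46 normalized counts in Control and 139, 1.89 and 1.13 in Sox9cKO, so that its Sox9cKO mean rested on replicate 1. S100a7a had 8.41, 4.64 and 9.22 in Control and 17.9, 8.51 and 32.8 in Sox9cKO (adjusted p 0.332 from limma). S100a2 and S100a3, which overlap on the same strand, had 1 to 5 and 1 to 6 reads in each sample and were not tested. S100pbp, named for its binding of S100P, had 607, 669 and 550 normalized counts in Control and 331, 416 and 558 in Sox9cKO. Its groups overlapped through Sox9cKO replicate 3 (log2 fold change -0.51 ± 0.20 SE, adjusted p 0.249 from limma).

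**Figure D2:**
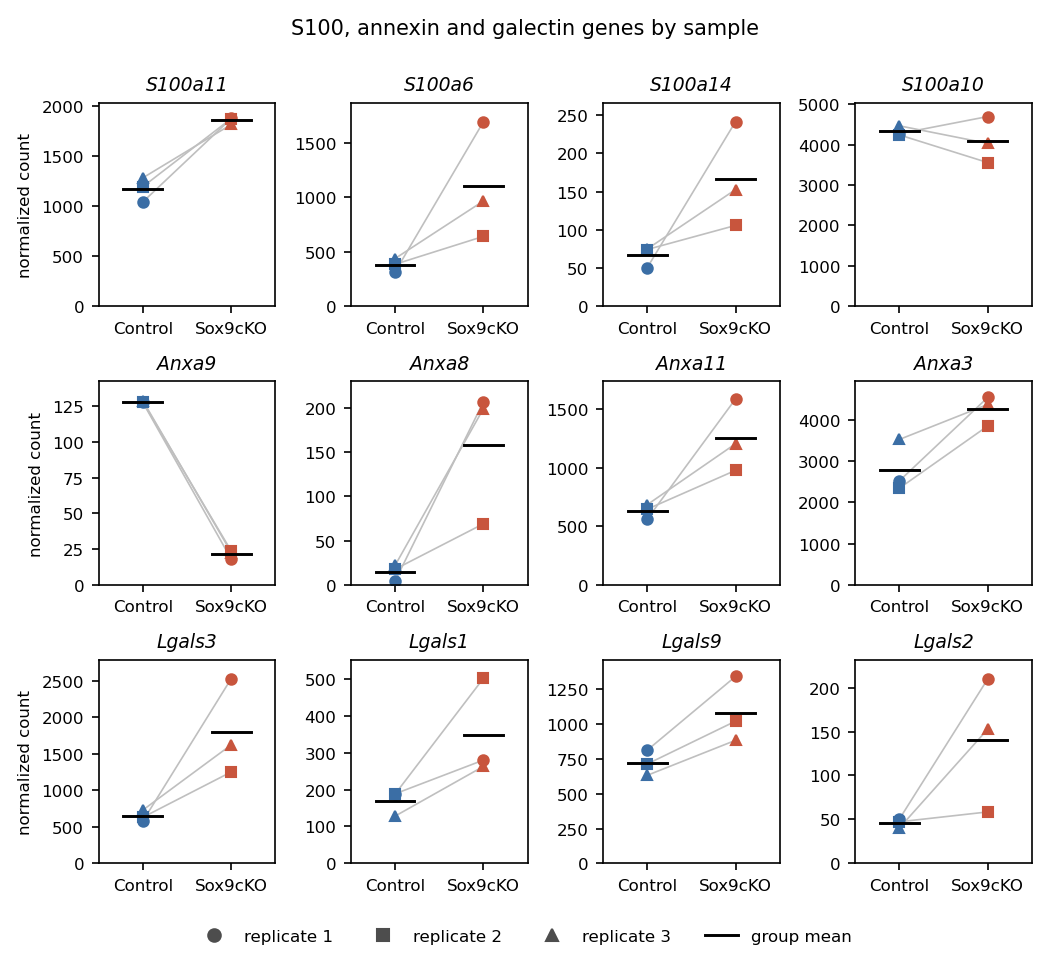
Normalized counts (y axis, linear from 0, a scale for each panel) of 12 genes in the 3 Control (blue) and 3 Sox9cKO (red) samples, with marker shapes for the replicate number, grey lines between equal numbers and black bars for group means. Anxa9 drops from about 128 to between 17.9 and 23.6 with no overlap, while S100a6, Anxa11 and Lgals3 are highest in Sox9cKO replicate 1.

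The annexins held both the largest rise and the largest fall among the 29 genes. Anxa9 encodes an atypical annexin that has lost calcium-binding residues of its family. It had 128, 128 and 129 normalized counts in Control and 17.9, 23.6 and 22.6 in Sox9cKO, where 16.7% of the Control mean remained (128.3 ± 0.66 against 21.4 ± 3.06, SD, n = 3). The groups lay far apart, and the log2 fold change was -2.54 ± 0.22 SE (adjusted p 0.00327 from limma). Anxa9 was called in each of the 18 alternative fits, with an adjusted p of at most 0.0232. The Control values differed by less (CV 0.515%) than counting error alone gives at this depth (8.71%), so their closeness is not a measure of the spread between samples.

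Anxa9 overlaps Mindy1 on the other strand and 6330562C20Rik on its own strand, and whether counting used the strand is not given in the sources used here. Mindy1 had 733 ± 37.9 normalized counts in Control and 986 ± 188 in Sox9cKO (SD, n = 3), in the direction opposite to Anxa9 (adjusted p 0.242 from limma). 6330562C20Rik had 11.5 ± 0.57 and 6.51 ± 1.48 (SD, n = 3), below the level tested.

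Anxa8, an annexin of stratified epithelia, had 4.20, 17.6 and 21.9 normalized counts in Control and 207, 69.0 and 199 in Sox9cKO. The lowest Sox9cKO value was above the highest Control value, but both groups were spread widely (14.6 ± 9.23 and 158 ± 77.5, SD, n = 3). Its log2 fold change was 3.45 ± 0.66 SE (adjusted p 0.0413 from limma), the call held in 1 of the 6 fits without 1 sample, and the adjusted p there reached 0.125.

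Anxa11, which links RNA granules to lysosomes and binds S100a6, had 562, 646 and 684 normalized counts in Control and 1589, 978 and 1206 in Sox9cKO. The groups did not overlap, and replicate 1 was highest in Sox9cKO and lowest in Control (means 631 ± 62.9 and 1258 ± 309, SD, n = 3). The log2 fold change was 0.97 ± 0.19 SE (adjusted p 0.0458 from limma). Close to the threshold, the call was lost in 5 of the 6 fits without 1 sample (adjusted p up to 0.184), with edgeR (0.0525) and with quantile normalization (0.058). The antisense gene Anxa11os had 2.30 to 11.9 normalized counts.

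Anxa3 had 2523, 2345 and 3529 normalized counts in Control and 4551, 3858 and 4379 in Sox9cKO. Its groups did not overlap, and the log2 fold change of 0.63 passed with the replicate block (SE 0.13, adjusted p 0.0329 from limma) and not without it (SE 0.17, adjusted p 0.116). Gm42603 overlaps Anxa3 on the same strand and had 661 ± 173 and 846 ± 174 normalized counts (SD, n = 3). Anxa1, the anti-inflammatory ligand of formyl peptide receptors, had 185, 312 and 240 normalized counts in Control and 815, 305 and 391 in Sox9cKO. Its groups overlapped through Sox9cKO replicate 2 (adjusted p 0.250 from limma). Anxa10, a gastric annexin, had 4.20, 40.8 and 59.9 normalized counts in Control and 172, 21.7 and 24.9 in Sox9cKO, so that 1 library stood above the rest and the others overlapped.

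The most abundant annexins did not pass. Anxa5, the phosphatidylserine binder used to stain dying cells, had 12568, 9500.2 and 12015 normalized counts in Control and 8810, 10979 and 9566 in Sox9cKO (log2 fold change -0.21 ± 0.15 SE, adjusted p 0.526 from limma). Anxa2 had 9065, 8214 and 10665 in Control and 12377, 8886 and 10497 in Sox9cKO (0.18 ± 0.16 SE, adjusted p 0.626 from limma). Both genes overlapped between groups. Anxa4, an annexin of secretory epithelia, and Anxa13, an annexin of apical transport in gut and kidney epithelia, had 3669 ± 317 and 2344 ± 491 normalized counts in Control and 3582 ± 763 and 2458 ± 638 in Sox9cKO (SD, n = 3). Anxa6 and Anxa7 had log2 fold changes of 0.16 and 0.17, and neither passed.

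Per kilobase of the longest protein-coding transcript, which allows levels to be compared between genes, Anxa5 (6563 ± 945 normalized counts per kb in Control, SD, n = 3), Anxa2 (6437 ± 860) and S100a10 (6317 ± 178) stood together at the top, within their spread. S100a11 followed at 2291 ± 238, with Anxa4 at 1807 ± 156 and Anxa3 at 1755 ± 400.1 next and not apart from each other. Anxa8 was at 7.75 ± 4.91 and Anxa9 at 68.5 ± 0.35. In Sox9cKO the same 3 genes were highest (Anxa2 7316 ± 1207, S100a10 5978 ± 837, Anxa5 5653 ± 636), and S100a11 reached 3624 ± 67.0. Anxa13 had no protein-coding length and was left out of this order.

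Some S100 proteins and annexins are known to form complexes, and their transcripts were set against each other per kb. S100a10 to Anxa2 gave ratios of 0.996, 1.09 and 0.885 in Control and 0.802, 0.845 and 0.811 in Sox9cKO. The ranges did not overlap, with Sox9cKO lower. S100a6 to Anxa11 gave 1.83, 1.95 and 2.09 in Control and 3.48, 2.14 and 2.62 in Sox9cKO, also without overlap. S100a11 to Anxa1 gave 18.4, 12.5 and 17.5 in Control and 7.53, 20.1 and 15.2 in Sox9cKO, with overlap. These ratios were chosen as known pairs and were not tested. How often the ratios of other gene pairs do not overlap was not computed. Among the single genes tested, 24.2% did not overlap.

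Among the galectins, Lgals3 was the only one called by limma without the replicate block, and it was higher in Sox9cKO. Lgals3, or galectin-3, which binds cell-surface glycans and marks damaged lysosomes, had 580, 631 and 730.4 normalized counts in Control and 2530, 1252 and 1623 in Sox9cKO. Every Sox9cKO sample was above every Control sample, and Sox9cKO replicate 1 was highest (means 647 ± 76.5 and 1802 ± 657, SD, n = 3). The log2 fold change was 1.42 ± 0.25 SE (adjusted p 0.0315 from limma), and the call held in 2 of the 6 fits without 1 sample, with an adjusted p of up to 0.142.

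Because macrophages also express galectin-3, their markers were set beside it. The 10 monocyte, macrophage and Kupffer cell markers summed to 5301 to 5957 normalized counts in Control and 6894 to 8896 in Sox9cKO. That sum came mainly from Cd14 and Csf1r. Cd14 had 4117 to 4692 normalized counts in Control and 5064 to 7351 in Sox9cKO. Its groups did not overlap, but it did not pass (log2 fold change 0.46, adjusted p 0.184 from limma). Csf1r rose (761 ± 48.9 to 1450 ± 186, SD, n = 3, adjusted p 0.0142 from limma, called in 3 of the 6 fits without 1 sample, up to 0.0728). The other 6 tested markers had negative log2 fold changes. Among them were Lyz2 (21.9 to 65.9 in Control and 7.93 to 22.7 in Sox9cKO) and Cd68 (150 to 176 and 113 to 135). None of those 6 passed without the replicate block, and with it only Lyz2 did (adjusted p 0.042 from limma). Adgre1 and Ccr2 were below the level tested, at up to 21.0 and 4.20 normalized counts, and Ccr2 was listed at 0 in Sox9cKO replicate 1. Their part in the galectin-3 result was not tested.

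Lgals1, or galectin-1, common in stroma and endothelium, had 188, 188 and 128 normalized counts in Control and 280, 501 and 263 in Sox9cKO. Its groups did not overlap, and Sox9cKO replicate 2 was highest. Its log2 fold change was 1.004, with an adjusted p from limma of 0.0265 with the replicate block (SE 0.19) and 0.128 without (SE 0.29). Lgals9, or galectin-9, a ligand of the T cell receptor protein Tim-3, had 813, 714 and 633 normalized counts in Control and 1343, 1022 and 884 in Sox9cKO. Within each replicate number the Sox9cKO sample was higher, by 0.48 to 0.72 on the log2 scale, and the adjusted p from limma was 0.0267 with the block (SE 0.11) and 0.161 without (SE 0.18) for a log2 fold change of 0.57.

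Lgals2, a galectin of gut epithelium, had 50.4, 47.3 and 40.3 normalized counts in Control and 210, 58.6 and 153 in Sox9cKO. Its groups did not overlap, with Sox9cKO replicate 2 close to the Control samples. The log2 fold change was 1.41 ± 0.45 SE with an adjusted p from limma of 0.163, and without Sox9cKO replicate 2 the adjusted p was 0.0246. Lgals8, a sensor of damaged endosomes, had 483, 614 and 543 normalized counts in Control and 666, 673 and 624 in Sox9cKO (0.27 ± 0.13 SE, adjusted p 0.355 from limma), which did not overlap but lay close together. Lgals4, which acts in apical transport, had 262, 388 and 317 in Control and 1404, 282 and 661 in Sox9cKO, with overlap (adjusted p 0.376 from limma). Some mouse strains carry a near-identical copy of Lgals4, and how shared reads were assigned is not given in the sources used here.

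Lgals7 and Lgals12 were below the level tested. Lgals7, a galectin of stratified epithelia, had 7.57, 7.43 and 10.4 normalized counts in Control and 0, 2.84 and 3.40 in Sox9cKO. These levels rest on at most 9 reads. Lgals12, a galectin of fat cells, had 2 to 12 reads in each sample.

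The size of the differences varied with the replicate number. Sox9cKO replicate 1 held the highest value of the 6 samples in 23 of the 29 tested genes, whereas it held the highest value in 23.3% of all genes tested. Control replicate 1 held the lowest value in 10 of the 29, against 12.9% of all genes tested. Within replicate number 1 the difference was positive for 26 of the 29 genes with a median of 0.72 on the log2 scale, within number 2 for 17 with a median of 0.11, and within number 3 for 19 with a median of 0.24. The medians over all genes tested were 0.044, 0.025 and 0.036.

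The difference had the same sign within all 3 numbers for 14 genes, of which 13 were positive and 1, Anxa9, was negative. Of those 13, 10 were largest within number 1. Without Sox9cKO replicate 1 the median over the genes still tested was 0.19, with 18 of 28 positive, and without Control replicate 1 it was 0.23. The median coefficient of variation of the 29 genes was 12.1% in Control and 26.4% in Sox9cKO, against 16.7% and 19.8% over all genes tested.

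**Figure D3:**
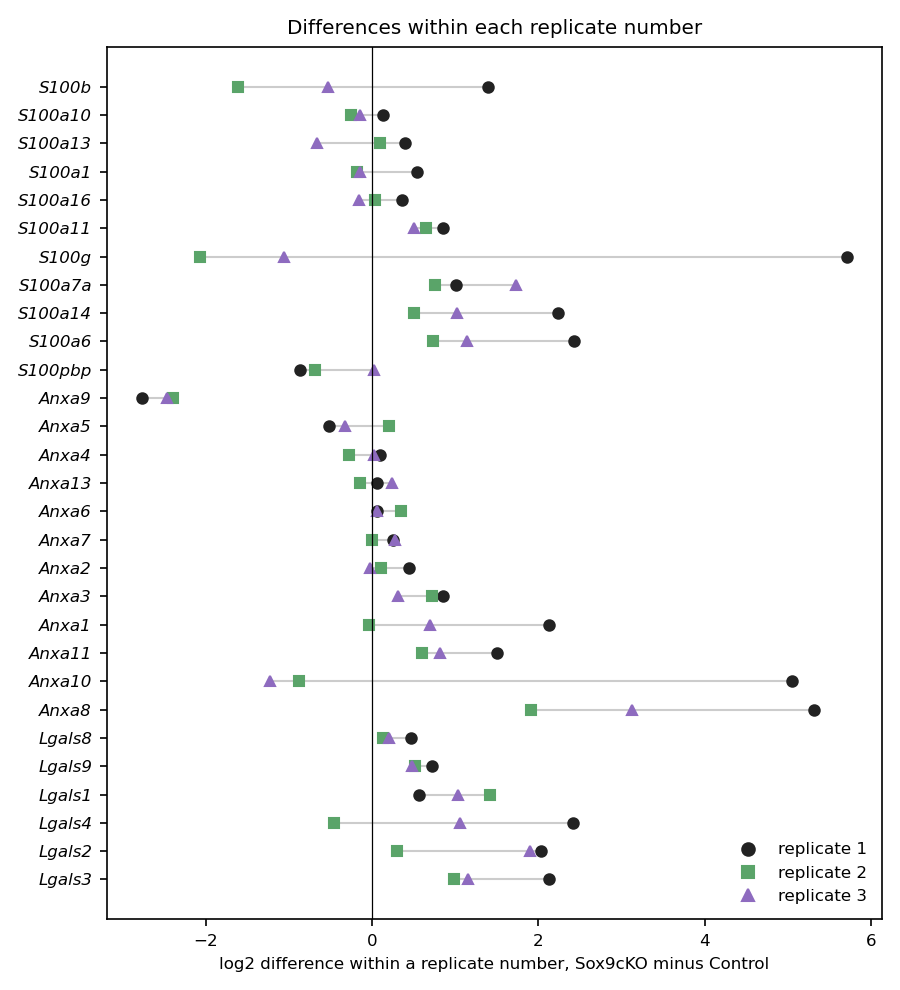
Log2 difference, Sox9cKO minus Control, between samples of the same replicate number (x axis, log2 scale) for the 29 tested genes, with circles, squares and triangles for replicates 1, 2 and 3. For S100g and Anxa10 replicate 1 lies far to the right while replicates 2 and 3 lie left of 0, and for Anxa9 all 3 points lie together left of 0.

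Cell type markers moved with these libraries as well. In Sox9cKO replicate 1 the biliary keratin transcripts Krt19 and Krt7 were at 26648 and 5093 normalized counts, the highest of the 6 samples. The 8 stellate cell and fibroblast markers summed to 1716 there. Their sum was 373 to 866 in Control and 516 to 584 in the other Sox9cKO samples. The sum of 1716 came mainly from Col1a1 (759) and Col1a2 (527). Acta2 and Dpt were also highest in that sample, Dcn, Pdgfrb and Des were not, and Lrat (10.9) was at its lowest. Krt7 rose over the groups (log2 fold change 0.997 ± 0.19 SE, adjusted p 0.0408 from limma, called in 1 of the 6 fits without 1 sample, up to 0.152). The 6 mesothelial markers summed to 436 to 542 in Control and 934 to 1884 in Sox9cKO, through Msln, which rose (2.01 ± 0.30 SE, adjusted p 0.0159 from limma, called in 2 of the 6 fits without 1 sample, up to 0.0719). The mesothelial marker Upk3b had a log2 fold change of -0.82 (adjusted p 0.110), and Krt14 was at 0 to 12.1 normalized counts. The part of these cell types in the S100, annexin and galectin values was not tested.

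The endothelial markers varied widely between replicate numbers, and none of the 8 genes passed without the replicate block, while Vwf passed with it (adjusted p 0.042 from limma). Their sum was 9846, 31024 and 1426 normalized counts in Control and 24243, 31564 and 5027 in Sox9cKO. Within number 2 the sums were close, and Pecam1 was lower in Sox9cKO (3057 and 2654) while Stab2 was higher (12848 and 14073). With that level as a covariate, an alternative chosen after the data were seen, limma called S100a11, Anxa8, Anxa11, Anxa9, Lgals3 and also Anxa3 (adjusted p 0.0262). The 6 of 8 lymphocyte and pan-leukocyte markers in the table summed to 87.4 to 145 in Control and 52.1 to 59.7 in Sox9cKO, and the 6 of 10 neutrophil markers, mainly Ltf, to 40.4 to 562 and 12.3 to 153. Csf3r, the other neutrophil marker tested, had 20.7 to 23.2 normalized counts in Control and 1.89 to 6.96 in Sox9cKO. This low gene passed as lower with the replicate block (adjusted p 0.0441 from limma) and not without it (0.0724).

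**Figure D4:**
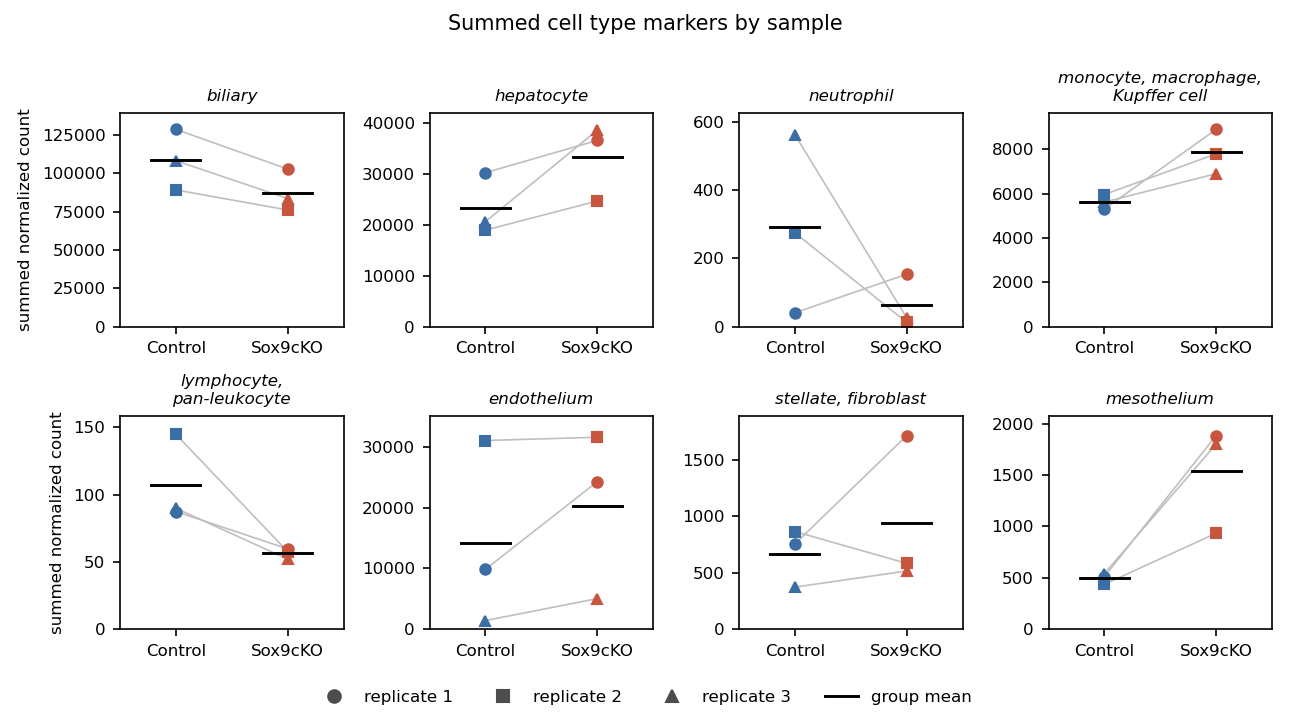
Summed normalized counts (y axis, linear from 0, a scale for each panel) of 8 lists of cell type markers in the 3 Control (blue) and 3 Sox9cKO (red) samples, with marker shapes and grey lines for the replicate number and black bars for group means. The endothelial sum ranges from 1426 to 31564 and follows the replicate number, and the mesothelial and macrophage sums are higher in all Sox9cKO samples than in all Control samples.

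The genes that S100 proteins, annexins and galectins work with were read from 8 lists, in which 7 genes were called, 5 higher and 2 lower in Sox9cKO. The number tested is given with each list. Over all genes tested, 2.97% were called, 2.03% as higher and 0.939% as lower. With the replicate block these shares were 8.05%, 5.06% and 2.99%. In the list of cell-surface plasminogen activation and annexin A2 partners, 2 of the 10 tested genes were called as higher and none as lower. Plg, which encodes plasminogen and is made mainly by hepatocytes, had 146, 120 and 74.9 normalized counts in Control and 1025, 847 and 1224 in Sox9cKO. Those groups were far apart (log2 fold change 3.21 ± 0.27 SE, adjusted p 0.00319 from limma). Of the 8 hepatocyte markers, 2 were called as higher as well, Serpina1c (log2 fold change 3.18) and Tat (2.26), while Alb had 0.47 and did not pass. The log2 fold change was positive for 6 of the 8 and negative for Ttr (-0.44) and Cyp3a11 (-0.028). The part of hepatocyte transcripts in the Plg result was not tested.

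Plau, the urokinase-type plasminogen activator, had 242, 598 and 300 normalized counts in Control and 1244, 1349 and 1179 in Sox9cKO (log2 fold change 1.83 ± 0.31 SE, adjusted p 0.0277 from limma). Its groups did not overlap either, but the call held in 1 of the 6 fits without 1 sample (adjusted p up to 0.105), where that of Plg held in all 6. With the replicate block Plat, the tissue-type activator, was higher (log2 fold change 1.67 ± 0.12 SE, adjusted p 0.00123 against 0.0721 without it) and Eno1, a glycolytic enzyme that also binds plasminogen, was lower (log2 fold change -0.57, adjusted p 0.0231 from limma with the block). Both were named after their values were seen. Anxa2 and S100a10, which hold this system on the membrane, did not pass, as given above.

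**Figure D5:**
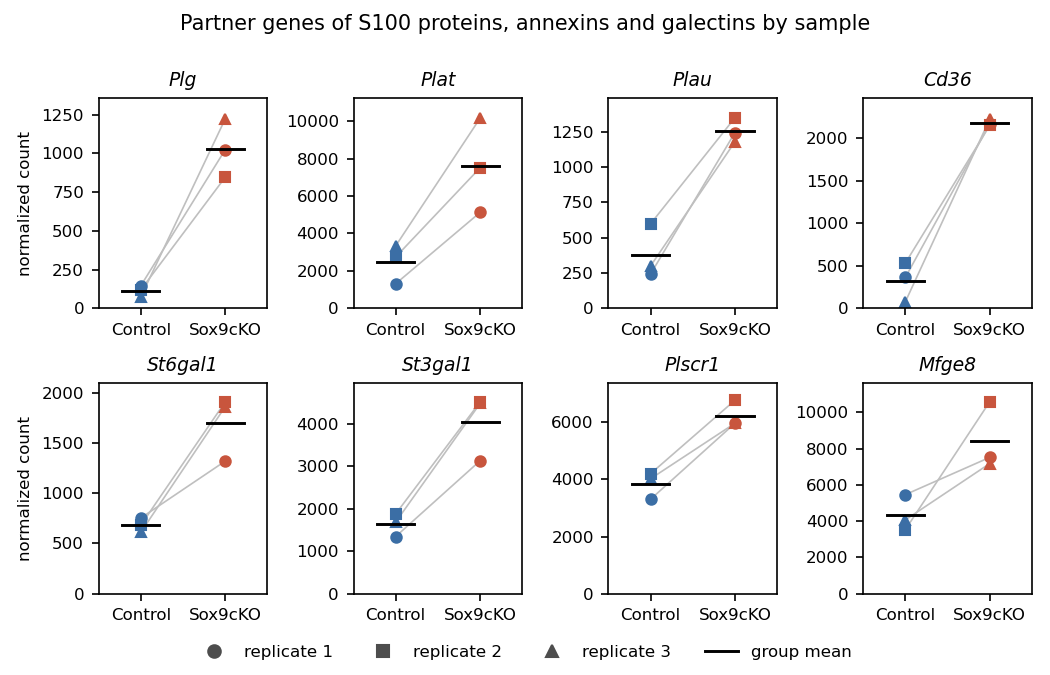
Normalized counts (y axis, linear from 0, a scale for each panel) of 8 partner genes in the 3 Control (blue) and 3 Sox9cKO (red) samples, with marker shapes and grey lines for the replicate number and black bars for group means. The genes drawn were all called as higher by limma, with or without the replicate block. Those called as lower (Efhd1, Ncald and, with the block, Eno1) are not drawn. In each panel all 3 Sox9cKO samples lie above all 3 Control samples, which follows in part from this choice. Plg lies at 74.9 to 146 in Control and 847 to 1224 in Sox9cKO.

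In the list of glycan branching and capping enzymes, 2 of the 14 tested genes were called as higher and none as lower. These enzymes set how many galactose ends galectins can bind. St6gal1, a sialyltransferase that caps N-glycans, had 753, 682 and 612 normalized counts in Control and 1319, 1909 and 1861 in Sox9cKO (log2 fold change 1.298 ± 0.17 SE, adjusted p 0.0108 from limma). St3gal1, a sialyltransferase that caps core O-glycans, had 1346, 1881 and 1688 in Control and 3132, 4515 and 4482 in Sox9cKO (1.296 ± 0.19 SE, adjusted p 0.0157 from limma). Without 1 sample, St6gal1 was called in 5 of 6 fits (adjusted p up to 0.0524) and St3gal1 in 2 of 6 (up to 0.0725). In both genes Sox9cKO replicate 1 was the lowest Sox9cKO sample, where it was the highest for Lgals3, Lgals9 and Lgals2.

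None of the 10 tested galectin ligands and binding proteins was called, and with the replicate block 4 were, all higher: Lgals3bp, Lamp1, Cd44 and Cd47, with log2 fold changes of 0.62, 0.52, 0.68 and 0.47. In the list of phosphatidylserine exposure, uptake and annexin A1 receptors, 1 of the 14 tested genes was called as higher. It was Plscr1, a phospholipid scramblase, with 3305, 4201 and 4024 normalized counts in Control and 5969, 6775 and 5968 in Sox9cKO (0.70 ± 0.13 SE, adjusted p 0.0368 from limma). The Plscr1 call was lost in each of the 6 fits without 1 sample (adjusted p 0.0545 to 0.134). With the block, Mfge8, a bridging protein that binds phosphatidylserine (0.95 ± 0.20 SE, adjusted p 0.0383), and Atp8a1, a lipid flippase (0.49 ± 0.11 SE, adjusted p 0.0439), were added. The block-only genes were named after their values were seen.

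None of the 12 tested S100 receptors and binding partners was called, and with the replicate block 2 were, both higher. Cd36, a scavenger receptor, had 363, 532 and 77.2 normalized counts in Control and 2166, 2149 and 2223 in Sox9cKO (log2 fold change 3.14, adjusted p 0.0136 with the block, SE 0.48, and 0.0505 without, SE 0.64, from limma). Ager, the receptor for advanced glycation end products, had 15.1 ± 9.44 and 48.0 ± 22.6 normalized counts (SD, n = 3, adjusted p 0.0289 with the block). None of the 14 tested membrane repair genes was called, nor either of the tested S100 fused-type genes, large epidermal proteins that carry an S100 domain. With the block, 2 membrane repair genes were called as higher.

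Other EF-hand calcium binders were read as relatives of the S100 genes, and there 2 of the 19 tested genes were called as lower. None was called as higher in the fit without the replicate block. With it, limma called Cib1 (log2 fold change 0.98, adjusted p 0.0354) and Calm3 (0.50, adjusted p 0.0481) as higher. Cib1 and Calm3 were named after their values were seen. Efhd1, a mitochondrial EF-hand protein, had 109, 88.2 and 143 normalized counts in Control and 2.99, 1.89 and 7.93 in Sox9cKO (log2 fold change -4.58 ± 0.47 SE, adjusted p 0.00486 from limma). Ncald, or neurocalcin delta, had 142, 93.7 and 94.5 in Control and 24.9, 28.4 and 21.5 in Sox9cKO (-2.08 ± 0.26 SE, adjusted p 0.00849 from limma). Both stood clear of overlap and were called in all 6 fits without 1 sample.

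Several of these genes share a chromosome, and their order along it is given with all other genes left out. On chromosome 3 the order in GENCODE M21 is Anxa5, S100a1, S100a13, S100a14, S100a16, S100a3, S100a2, S100a6, S100a7a, S100a11, S100a10 and Anxa9. S100a11, which rose, S100a10, which did not pass, and Anxa9, which fell, follow each other in that order. On chromosome 14 the order is Anxa7, Anxa11, Anxa8 and Lgals3, of which the last 3 rose and Anxa7 had a log2 fold change of 0.17 (adjusted p 0.558 from limma). On chromosome 15 the order is Anxa13, Lgals2 and Lgals1, with log2 fold changes of 0.053, 1.41 and 1.004.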

How the data were processed

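RNA was measured in 6 samples, 3 per group. Per the labels' protocols, total RNA was extracted with the RNAqueous Micro Kit, ribosomal RNA was depleted, and libraries with unique molecular identifiers were made with Takara's SMARTer Stranded kit (v3 Pico) for total RNA. The submitters' processing notes name GRCm39 and DESeq2 1.36.0, and the aligner, counter, annotation and handling of the identifiers are not given in the sources used here. The deposited signal per gene is a count divided by a single factor per sample, and dividing it by the smallest step gave whole reads for 100% of values (tolerance 0.001 reads).

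Values were transformed as log2(value + 1), which understates changes of low genes. The test was limma 3.58.1 (R 4.3.3) on genes with a mean of at least 10 (eBayes with intensity trend, two-sided, Benjamini-Hochberg over 17153 genes, threshold 0.05). Scripts were tested on simulated data, where the replicate block and DESeq2 gave larger shares of false calls than limma without the block. The simulated samples had no deviations shared by replicate number, so they cannot show how the block performs on these data. Limma without the block recovered 64.8% of simulated log2 changes of 2 and 11% of those of 1. A gene that did not pass can therefore still have changed. Other settings tried were a pseudocount of 0.1 or 5, a minimum mean of 50 or none, quantile normalization, TMM factors, no trend, the replicate block, edgeR 4.0.16 with and without the block and DESeq2 1.42.0 on the recovered reads, 6 fits without 1 sample and an endothelial covariate, which was added after the data were seen. The labels number the replicates, and same-numbered samples deviated together from their group means (correlations across genes of 0.207, 0.472 and 0.542), which is the source of the pairing. Libraries within a group differed by more than sampling noise (chi-square divided by its degrees of freedom 17.9 to 39.5).

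The genes and lists were chosen with earlier results of these data known. The text names Sox9, every S100, annexin and galectin gene, and the called genes of each partner list, and further genes are named where this was decided with their values known. Lengths, order and overlaps came from GENCODE M21 and promoter sequences from RefSeq, both on GRCm38, matched by symbol or Ensembl identifier. Protein sequences were not used here, and 1 gene of a partner list is not reported here and is left out of that list's counts.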

Additional observations from a re-analysis of the deposited data

How the results depend on the processing

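Sox9 and Anxa9 kept their direction and their call under all 18 alternatives, with a Sox9 log2 fold change between -0.9997 and -0.88. The number of all genes called was 1381 with the replicate block (868 higher, 513 lower), 1160 with edgeR and the block (664 and 496), 1214 with DESeq2 (721 and 493), and 200 to 389 in the fits without 1 sample (153 to 275 higher, 47 to 114 lower). The higher share was 57.2% with edgeR and the block and 68.4% in the reported fit. Of the S100, annexin and galectin genes, 9 were called with the block (8 higher), 8 with edgeR and the block (7 higher), 9 with DESeq2 (8 higher), 3 with quantile normalization (2 higher), 1 without the intensity trend (0 higher), and 1 to 6 without 1 sample (0 to 5 higher). Partner genes called numbered 21 with the block (18 higher), 14 with edgeR and the block (11 higher), 15 with DESeq2 (12 higher), and 4 to 7 without 1 sample (2 to 5 higher). The lowest of these counts came without Control replicate 1 (200 genes, 153 higher and 47 lower, 1 gene of the 3 families and 4 partner genes).

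Only genes that were not called changed sign. Quantile normalization gave log2 fold changes of -0.039 for Anxa13, -0.047 for S100a16 and -0.058 for S100a1, edgeR gave 0.24 and DESeq2 0.25 for S100b, and DESeq2 gave 0.000123 for S100a13. Without 1 sample the values ran from -0.11 to 1.66 for Anxa10, -0.19 to 0.12 for Anxa4, -0.11 to 0.28 for Anxa13, -0.19 to 0.0085 for S100a10, -0.097 to 0.21 for S100a16, -1.05 to 0.49 for S100b, -0.19 to 0.23 for S100a1 and -0.35 to 0.32 for S100a13. The cause was not tested. A fit without 1 sample also has fewer samples to estimate the spread. Depth limits S100a2, S100a3, Lgals7 and Lgals12, which had at most 12 reads in any sample.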

Other observations

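Lgalsl, a galectin-related gene outside the symbols taken, had 309, 247 and 203 normalized counts in Control and 126, 165 and 139 in Sox9cKO. Its groups did not overlap, with Sox9cKO lower, opposite in direction to the 6 tested galectins (log2 fold change -0.80 ± 0.21 SE). The adjusted p from limma was 0.056 with the replicate block and 0.1 without it, so Lgalsl passed in neither fit. It was singled out after its values were seen.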
